A study of Mus musculus with 8 samples.

Results

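Transcripts of the mitochondrial outer membrane import machinery were measured in mouse testis, as 10 genes whose symbols name subunits or relatives of the TOM complex: Tomm20, Tomm20l, Tomm22, Tomm34, Tomm40, Tomm40l, Tomm5, Tomm6, Tomm7 and Tomm70a. They were taken by symbol from a table of 57690 rows, and each symbol had 1 row. Testes came from C57BL/6 mice aged 8 weeks. In 4 libraries the mice had received 2 intraperitoneal injections of 200 µg of an antibody against PD-L1, a surface protein that restrains T cells. In the 4 libraries of the comparison group they had received the same number and amount of an IgG2b isotype antibody, and both groups were sampled 7 days after treatment. Whether each library is a different mouse is not stated in the labels. The p-values thus speak for the scatter among these 8 libraries, part or all of which may be technical.

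Tomm20 was chosen by its TPM difference between these groups in earlier results on the same libraries, so that difference is given as a description with no test. The other 9 genes entered by name, and the question was whether Tomm20 moved alone among them.

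Nearly all mitochondrial proteins are made in the cytosol and enter through the TOM complex of the outer membrane. Tomm20 and Tomm22 recognise precursors with a cleavable presequence, Tomm70a takes up carrier precursors handed over by HSP70 and HSP90 chaperones, and Tomm40 forms the channel. The small subunits Tomm5, Tomm6 and Tomm7 take part in the assembly and stability of the complex. In spermatids, mitochondria are rearranged and wrapped into the sheath of the sperm midpiece. Values are in TPM, transcript levels corrected for gene length and expressed per library. Levels of different genes are set side by side with a limit, since the deposited length is a single number per gene and isoforms differ in length. That length was 4902 bases for Tomm20 and 578 for Tomm20l. Where shorter transcripts prevail, the level of a gene may be understated. Read depth is unknown from TPM. In bulk tissue, fewer cells of a type and less RNA per cell cannot be told apart.

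Tomm20 had 42.4, 46.6, 56.3 and 42.4 TPM in anti-PD-L1 libraries, against 20.7, 14.8, 16.8 and 26.7 TPM in IgG libraries. Every anti-PD-L1 library lay above every IgG library, and the closest pair was anti-PD-L1 replicate 4 and IgG replicate 4. The means were 46.9 ± 6.57 TPM in anti-PD-L1 libraries and 19.7 ± 5.23 TPM in IgG libraries (SD, n = 4 each), a ratio of 2.38. On the scale of log2(TPM + 1), on which all differences below are given, the difference was 1.23 (SE 0.17). A filter on the mean over all libraries, at 1 TPM or more, left 20343 genes. Of these, 84 had a larger positive difference, and so did 25 of the 9637 genes that averaged 10 TPM or more.

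Tomm20 lies on the minus strand of chromosome 8 of mm10, from 126930667 to 126945844 in GENCODE M21. Its annotated coding transcripts are 4902 and 458 bases long, with 5 and 3 exons, and the deposited gene length equals the longer. The table gives a value per gene, so the isoforms are not separated. The other members lie apart from it and from each other. Among the receptors and the paralog, Tomm20l spans 71111428 to 71123221 on chromosome 12, Tomm22 spans 79670861 to 79673400 on chromosome 15 and Tomm70a spans 57121703 to 57156705 on chromosome 16, all on the plus strand. On the minus strand, Tomm34 spans 164053540 to 164071169 on chromosome 2, Tomm40 spans 19701313 to 19715438 on chromosome 7 and Tomm40l spans 171216011 to 171222514 on chromosome 1. The small subunits, also on the minus strand, span 45105208 to 45108114 on chromosome 4 (Tomm5), 47686646 to 47688386 on chromosome 17 (Tomm6) and 23838944 to 23844161 on chromosome 5 (Tomm7).

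The start sites of the 3 receptors and of Tomm20l, the paralog of Tomm20, are shown to set the member that differed beside its closest relatives. Each RefSeq window (build GRCm38.p6) holds 250 bases before the start and 50 after it. Capitals mark matches, on either strand, to 4 textbook motifs: GCGC, any base and TGCGC for NRF1, CCGGAAG for ETS factors, GGGCGG (the GC box) and CACGTG (the E-box). The motifs were chosen after the sequences had been seen.

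Tomm20, chr8:126945872-126946171, minus strand: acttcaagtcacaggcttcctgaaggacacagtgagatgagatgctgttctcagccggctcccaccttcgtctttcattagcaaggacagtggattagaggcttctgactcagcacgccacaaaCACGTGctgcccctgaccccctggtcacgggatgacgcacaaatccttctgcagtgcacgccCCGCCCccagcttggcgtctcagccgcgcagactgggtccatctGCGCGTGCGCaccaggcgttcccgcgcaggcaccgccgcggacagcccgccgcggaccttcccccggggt

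Tomm20l, chr12:71111178-71111477, plus strand: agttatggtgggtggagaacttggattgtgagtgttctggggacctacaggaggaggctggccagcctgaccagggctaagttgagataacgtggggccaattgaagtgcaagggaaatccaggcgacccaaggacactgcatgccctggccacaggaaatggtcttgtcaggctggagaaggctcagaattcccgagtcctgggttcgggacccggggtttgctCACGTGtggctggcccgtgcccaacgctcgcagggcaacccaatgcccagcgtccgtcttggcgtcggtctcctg

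Tomm22, chr15:79670618-79670917, plus strand: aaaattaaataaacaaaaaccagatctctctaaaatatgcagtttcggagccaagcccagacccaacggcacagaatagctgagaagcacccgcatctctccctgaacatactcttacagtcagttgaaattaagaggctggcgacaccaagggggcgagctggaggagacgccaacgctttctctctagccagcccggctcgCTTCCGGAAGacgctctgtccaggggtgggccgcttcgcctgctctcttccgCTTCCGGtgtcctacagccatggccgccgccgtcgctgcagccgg

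Tomm70a, chr16:57121464-57121763, plus strand: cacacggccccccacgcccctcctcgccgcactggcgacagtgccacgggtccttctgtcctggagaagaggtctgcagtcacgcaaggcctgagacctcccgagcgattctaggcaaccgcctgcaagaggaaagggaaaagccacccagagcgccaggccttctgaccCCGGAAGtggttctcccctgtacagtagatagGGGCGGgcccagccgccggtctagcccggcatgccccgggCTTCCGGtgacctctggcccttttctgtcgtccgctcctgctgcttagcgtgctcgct

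RefSeq places the start of Tomm20 at 126945921, 77 bases upstream of the GENCODE start. The NRF1 letters GCGCGTGCGC begin 20 bases before the RefSeq start of Tomm20. Among the 8 members with a window, Tomm20 was the member that held the NRF1 letters, which 4.6% of all 32851 windows held. ETS letters were in windows of Tomm22, Tomm34 and Tomm70a and in 8.86% of all windows. In Tomm22 a pair of ETS matches overlap as CTTCCGGAAG. The E-box was in Tomm20 and Tomm20l and in 7.15% of all windows, and the GC box in Tomm20, Tomm34, Tomm40, Tomm5 and Tomm70a and in 35.7% of all. G and C made up 63.7% of the Tomm20 window, from 51.7% (Tomm5) to 66% (Tomm70a) over the member windows, and a median of 52.7% over all windows. The shares of all windows take no account of this, though the motifs are rich in G and C. A match describes letters and not binding. Nrf1, the gene of the factor that binds the first motif, had 19.8 ± 1.10 TPM in anti-PD-L1 libraries and 19.1 ± 0.42 TPM in IgG libraries (SD, n = 4 each). Its difference was 0.04 (SE 0.06).

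**Figure D1:**
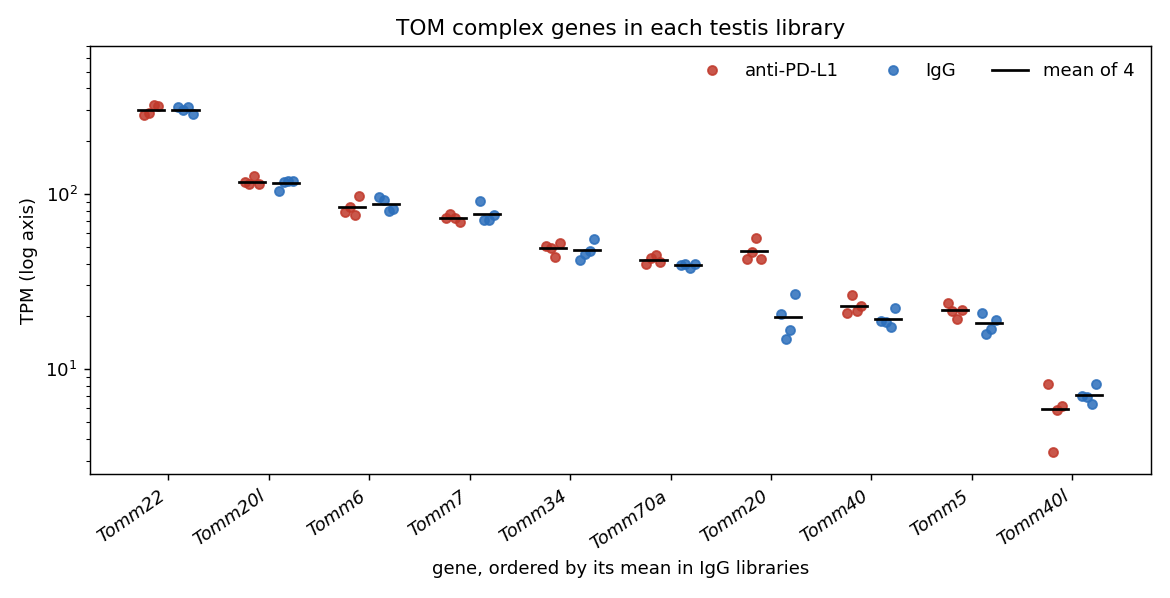
TPM of each TOM gene in each library on a log axis, with anti-PD-L1 libraries in red, IgG libraries in blue and a black line at the mean of 4. Tomm20 is the gene whose groups are far apart: 42.4 to 56.3 TPM in anti-PD-L1 libraries and 14.8 to 26.7 TPM in IgG libraries.

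The other receptors and the paralog did not differ beyond the spread between libraries by the test. Tomm22, the central receptor that ties the subunits together, had the highest mean TPM of the members. It had 282, 289, 320 and 319 TPM in anti-PD-L1 libraries, against 313, 300.2, 312 and 287 TPM in IgG libraries. The groups of Tomm22 overlapped, and the difference was -0.003, its 95% confidence interval running from -0.13 to 0.12. Tomm20l had 116, 114, 126 and 114 TPM in anti-PD-L1 libraries, against 105, 118, 119 and 119 TPM in IgG libraries. Its groups overlapped as well, IgG replicate 1 being the lowest library, and the difference was 0.03 with an interval from -0.10 to 0.17.

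Tomm70a, the receptor for carrier precursors, had 39.98, 42.9, 44.98 and 40.9 TPM in anti-PD-L1 libraries, against 39.3, 39.6, 37.5 and 39.8 TPM in IgG libraries. The groups did not overlap, by a gap of less than the spread within either: the lowest anti-PD-L1 library stood at 39.98 TPM and the highest IgG library at 39.78 TPM. The difference was 0.11 (SE 0.06), with an interval from -0.02 to 0.24. Groups without overlap and higher after anti-PD-L1 made up 1.76% of all genes tested, 2.99% counting either direction, and Tomm70a was the 1 such gene among the 9 members other than Tomm20. Tomm34, a cytosolic co-chaperone that binds HSP70 and HSP90, ranged from 43.5 to 52.8 TPM in anti-PD-L1 libraries and from 41.8 to 55.5 TPM in IgG libraries, a difference of 0.05 (SE 0.09).

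For the channel, Tomm40 had 20.8, 26.4, 21.5 and 22.8 TPM in anti-PD-L1 libraries, against 18.8, 18.7, 17.3 and 22.4 TPM in IgG libraries. IgG replicate 4 stood within the range of the anti-PD-L1 libraries, and the difference was 0.23 (SE 0.10), with an interval from 0.004 to 0.46. Tomm40l, which encodes the channel paralog TOM40B, had the lowest mean TPM of the members. It had 8.21, 3.36, 5.81 and 6.15 TPM in anti-PD-L1 libraries and 6.98, 6.93, 6.3 and 8.24 TPM in IgG libraries. Anti-PD-L1 replicate 2 was the lowest of the 8, and the ranges of the groups overlapped. The difference was -0.28 (SE 0.21), or -0.08 without anti-PD-L1 replicate 2.

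Of the small subunits, Tomm5 had 23.9, 21.5, 19.3 and 21.6 TPM in anti-PD-L1 libraries, against 20.9, 15.9, 17.03 and 19.1 TPM in IgG libraries. Its groups overlapped through IgG replicate 1, and the difference was 0.24 (SE 0.10), with an interval from 0.009 to 0.46. Tomm6 ranged from 75.7 to 96.9 TPM in anti-PD-L1 libraries and from 80.4 to 95.4 TPM in IgG libraries, a difference of -0.06 (SE 0.09). Tomm7, which in human cells is also needed to hold the kinase PINK1 at the complex, ranged from 69.1 to 77.1 TPM in anti-PD-L1 libraries and from 70.6 to 90.7 TPM in IgG libraries. Its difference was -0.07 (SE 0.08).

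**Figure D2:**
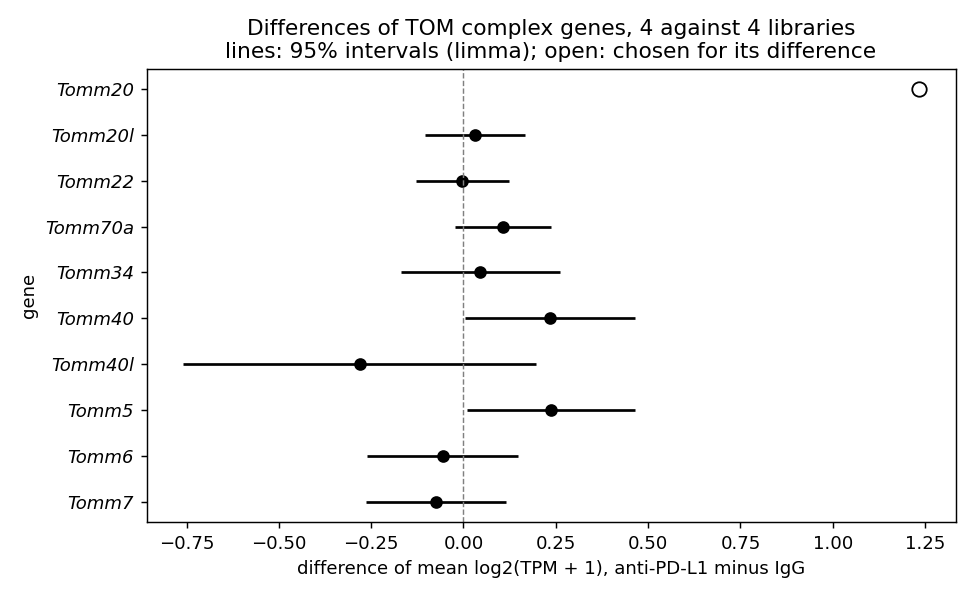
Difference of mean log2(TPM + 1), anti-PD-L1 minus IgG, for each TOM gene, with 95% confidence intervals from limma for the 9 genes not chosen for their difference. Tomm20, which was chosen for its difference, stands at 1.23, and the intervals of the others reach no higher than 0.46.

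Of the 9 members other than Tomm20, 0 passed an adjusted p of 0.05, the adjusted p lying between 0.934 and 0.999 by limma with Benjamini-Hochberg adjustment over all 20343 genes. Over all genes tested 0 passed as well (0%), and the smallest adjusted p of any gene was 0.0738 in limma. Leaving out IgG replicate 4 gave 15 genes over the whole table. Leaving out anti-PD-L1 replicate 4 gave 3, and leaving out IgG replicate 2 gave 1, as did leaving out anti-PD-L1 replicate 1. An unadjusted p under 0.05 in limma was reached by 2 of the 9, Tomm40 and Tomm5, beside 5.23% of all genes. Of the 9, 5 had differences above 0 and 4 below, with a median of 0.03, equal at that precision to the median over all genes of 0.03. All 10 members passed the filter of 1 TPM.

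Against its relatives, Tomm20 stood near their mean level in anti-PD-L1 libraries and below it in IgG libraries, as far as levels of different genes compare. The mean log2 level of the other 9 was 5.62 ± 0.04 in anti-PD-L1 libraries and 5.60 ± 0.06 in IgG libraries (SD, n = 4 each). Tomm20 stood 0.21 below that mean, 0.009 below, 0.24 above and 0.22 below it in the anti-PD-L1 libraries, and 1.19, 1.58, 1.38 and 0.87 below it in the IgG libraries. The groups did not overlap on this measure, and their means differed by 1.21, a description since Tomm20 was chosen for its difference.

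**Figure D3:**
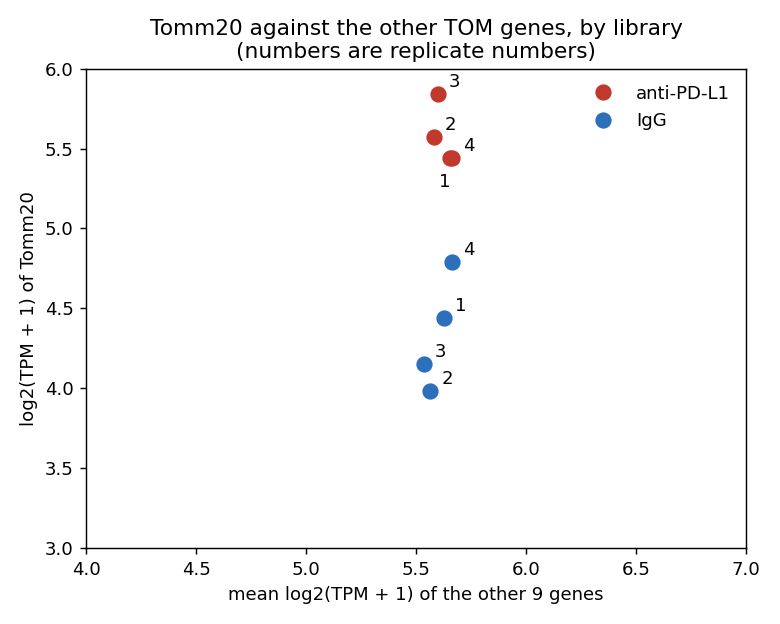
Log2(TPM + 1) of Tomm20 against the mean of the other 9 TOM genes, with a point per library, the same span on both axes, anti-PD-L1 in red and IgG in blue. The points separate along the Tomm20 axis, with means of 5.57 in anti-PD-L1 libraries and 4.34 in IgG libraries, and overlap along the other, with means of 5.62 in anti-PD-L1 libraries and 5.60 in IgG libraries.

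Ratios of TPM to single partners restate the difference by which Tomm20 was chosen, since these partners differed little between groups. They are descriptions, and their size depends on the gene lengths used. Tomm20l was 2.53 ± 0.24 times as abundant as Tomm20 in anti-PD-L1 libraries and 6.14 ± 1.65 times in IgG libraries (SD, n = 4 each). Tomm22 was 6.52 ± 0.78 times as abundant as Tomm20 in anti-PD-L1 libraries and 16.2 ± 4.20 times in IgG libraries. Of the summed TPM of Tomm20, Tomm20l, Tomm22 and Tomm70a, Tomm20 held 9.19 ± 0.89% in anti-PD-L1 libraries and 4.14 ± 1.12% in IgG libraries. The summed TPM of the 9 other members was 719 ± 22.4 in anti-PD-L1 libraries and 714 ± 11.7 in IgG libraries.

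Ordered by TPM, within the limit that gene length sets on such comparisons, Tomm22, Tomm20l, Tomm6 and Tomm7 led in both groups. Tomm40, Tomm5 and Tomm40l closed the order in both. Tomm20 held rank 6 of 10 in anti-PD-L1 libraries, where its range overlapped those of Tomm34 above it and Tomm70a below it. In IgG libraries it held rank 7, with a range that overlapped that of Tomm40 and lay below that of Tomm70a. Tomm6 and Tomm7 overlapped in both groups, as did Tomm40 and Tomm5. Tomm22 stood clear of Tomm20l, and Tomm20l of Tomm6, in both.

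Within groups the correlations between members had both signs, though 8 libraries are too few to settle whether the members vary together. Over the 45 pairs of members, the correlation of deviations from the group means over the 8 libraries had a median of 0.12. It ran from -0.72, for Tomm20l with Tomm6, to 0.68, for Tomm5 with Tomm7. Both ends may rest largely on IgG replicate 1. That library had the lowest Tomm20l (105 TPM) and the highest Tomm7 (90.7 TPM) of the 8. It also had the highest Tomm6 (95.4 TPM) and Tomm5 (20.9 TPM) of the IgG libraries. The correlation with Tomm20 ran from -0.37 for Tomm6 to 0.56 for Tomm70a. It was 0.51 for Tomm40, 0.42 for Tomm7, 0.17 for Tomm20l and -0.06 for Tomm22. All genes of a library share its depth and scaling, and these correlations are descriptions. Across the groups, the deviations over all genes were most alike between anti-PD-L1 replicate 1 and IgG replicate 4, at a correlation of 0.36. Without both of these libraries, the difference of Tomm20 was 1.43.

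The genes whose log2 levels over the 8 libraries were most like those of Tomm20 were Eid2b (Pearson r = 0.98), Nfkbil1 (0.98), Rnaset2a (0.98), Prr7 (0.98) and Cox5a (0.98). Such a measure takes in the difference between groups, by which these genes resemble Tomm20. Cox5a, a nuclear-encoded subunit of cytochrome c oxidase, had 355 ± 13.8 TPM in anti-PD-L1 libraries and 263 ± 37.2 TPM in IgG libraries (SD, n = 4 each), a difference of 0.44 (SE 0.09). Eid2b had 9.17 ± 1.68 TPM in anti-PD-L1 libraries and 3.50 ± 1.31 TPM in IgG libraries, a difference of 1.20 (SE 0.21). By deviations from the group means, which leave the difference out, the most alike were Gpatch3 (r = 0.98), Med7 (0.97), Sh3bp1 (0.97), Ddah1 (0.96) and Hoxd8 (0.96). Their differences ran from -0.09 for Gpatch3 to 0.12 for Med7. Sh3bp1 lay near the filter, at 1.25 ± 0.49 TPM in anti-PD-L1 libraries and 1.16 ± 0.57 TPM in IgG libraries. Each list holds the highest of many correlations over 8 libraries, and values this high can arise by chance. No gene stood in both lists, and such short lists from so many genes, by unlike measures, would seldom share a gene. Rnaset2a has a near-identical copy, Rnaset2b, so its value is uncertain.

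Sequence shared with other loci bears on the Tomm20 value. The deposited annotation names 15 further loci as like Tomm20, 14 of them processed pseudogenes, which are retrocopies of the messenger RNA. Of these loci 9 were listed at 0 in all 8 libraries, and 1 passed the filter of 1 TPM. This was AC158774.1, a transcribed processed pseudogene on chromosome 18, with 4.81, 5.1, 5.68 and 6.52 TPM in anti-PD-L1 libraries and 4.9, 4.14, 3.81 and 7.32 TPM in IgG libraries. Its groups overlapped, and its difference was 0.14 (SE 0.18). No other of the 15 exceeded 1.6 TPM in any library. How the authors assigned reads shared by Tomm20 and its copies is not given in the sources used here, so the value of Tomm20 carries that uncertainty.

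Genes beside Tomm20 were looked at as well. Rbm34, on the same strand, lies upstream of Tomm20 with its nearer edge, the 3′ end, 1328 bases away. It had 7.76 ± 0.88 TPM in anti-PD-L1 libraries and 7.19 ± 1.27 TPM in IgG libraries (SD, n = 4 each), a difference of 0.11 (SE 0.13). Pard3 and Irf2bp2, the next expressed protein-coding genes on each side, differed by -0.24 (SE 0.19) and 0.14 (SE 0.14). Inside Tomm20 lies a small nucleolar RNA gene that was listed at 0 in all libraries. Among other members, Tomm6 shares 1648 bases with the span of Gm21981 on the same strand and 777 with the antisense gene Tomm6os. Tomm6 also shares 93 bases with Usp49 on the opposite strand. Usp49 had 12.2 ± 1.52 TPM in anti-PD-L1 libraries and 19.3 ± 4.96 TPM in IgG libraries (SD, n = 4 each), with overlapping groups, a difference of -0.59 (SE 0.17) and an adjusted p of 0.657 in limma. Tomm34 shares 848 bases with Stk4 and Tomm40 shares 423 with Gm20512, both on the opposite strand. Tomm40l shares 4691 bases with Nr1i3 on the opposite strand, which did not exceed 0.11 TPM in any library. The strand setting is not given in the sources used here, so reads of the shared bases of exons cannot be assigned with certainty.

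The rest of the import route was read from 11 lists of 94 gene symbols, of which 88 genes were tested. Of these 88, 0 passed an adjusted p of 0.05 in limma, 5 had an unadjusted p under 0.05 with higher values and 4 with lower values, beside 3% and 2.22% of all genes. Groups did not overlap for 2 with higher values and 3 with lower values, beside 1.76% and 1.23% of all genes. The median difference was 0.01, beside 0.03 over all genes. The medians of single lists given below were small against the effect of 1 library. With each library left out in turn they changed sign for every list but the carrier translocase, the cytosolic chaperones and the import peptidases. Apart from the sorting and assembly machinery, they stayed between -0.11 and 0.09. The differences ran from -0.51 for Mfn1, a fusion protein of the outer membrane, to 0.50 for Mtx2, both named after their values were seen. None reached the 1.23 of Tomm20, which was chosen for its difference. Only 84 of all 20343 genes exceeded that value, so falling short of it is no test.

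Downstream of the TOM channel, the presequence translocase of the inner membrane had 6 tested genes, with a median difference of -0.05 and 0 genes under an unadjusted p of 0.05 in limma. Its members Timm21 and Timm17b differed by 0.23 (SE 0.16) and -0.12 (SE 0.16). The import motor, which pulls precursors into the matrix, had a median of 0.002 over 7 genes. Its chaperone Hspa9 had 166 ± 6.92 TPM in anti-PD-L1 libraries and 152 ± 6.99 TPM in IgG libraries (SD, n = 4 each), a difference of 0.13 (SE 0.05), and Dnajc15 differed by -0.07 (SE 0.06). The carrier translocase with its small TIM chaperones had a median of -0.05 over 10 genes. There Timm8a2 had 19.1 ± 0.85 TPM in anti-PD-L1 libraries and 22.9 ± 1.18 TPM in IgG libraries, a difference of -0.25 (SE 0.07). Timm13, a chaperone of the intermembrane space, had 32.4 ± 1.24 TPM in anti-PD-L1 libraries and 37.4 ± 3.22 TPM in IgG libraries, a difference of -0.20 (SE 0.07). The groups of Timm8a2 and of Timm13 did not overlap.

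The sorting and assembly machinery inserts barrel proteins such as Tomm40 into the outer membrane, and its 4 genes had a median of 0.06. That median was -0.10 without anti-PD-L1 replicate 1. Leaving out IgG replicate 4 gave 0.24, and leaving out IgG replicate 3 gave -0.05. Its receptor Mtx2 had 23.7 ± 4.17 TPM in anti-PD-L1 libraries and 16.5 ± 2.92 TPM in IgG libraries (SD, n = 4 each), a difference of 0.50 (SE 0.15) with overlapping groups. Mtx1 had 235 ± 9.51 TPM in anti-PD-L1 libraries and 267 ± 28.1 TPM in IgG libraries, a difference of -0.18 (SE 0.08), and Samm50, the barrel itself, differed by 0.03 (SE 0.15). The 3 genes of intermembrane space import had a median of 0.06, among them Gfer at 0.06 (SE 0.08) and Aifm1 at 0.07 (SE 0.15). The 6 import peptidases had a median of 0.06, among them Immp1l at 0.08 (SE 0.07) and Pmpca at 0.08 (SE 0.07). None of these genes passed in limma.

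On the cytosolic side, the 7 chaperones that carry precursors to the receptors had a median of 0.05. Hsp90aa1 had 1005 ± 74.2 TPM in anti-PD-L1 libraries and 952 ± 41.8 TPM in IgG libraries (SD, n = 4 each), a difference of 0.08 (SE 0.06). Channels and shape proteins of the outer membrane had a median of 0.006 over 17 genes. Among them Mff, the receptor of the fission factor DRP1, had 286 ± 6.95 TPM in anti-PD-L1 libraries and 266 ± 10.2 TPM in IgG libraries without overlap, a difference of 0.10 (SE 0.04), and Rhot1 differed by 0.15 (SE 0.06). The 6 tested genes around PINK1 and Parkin, which mark damaged mitochondria with ubiquitin, had a median of -0.04. Pink1 and Usp15 differed by -0.08 (SE 0.05) and 0.08 (SE 0.05), and Usp30, which removes ubiquitin from outer membrane proteins including TOM20, by -0.03 (SE 0.08).

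Genes of mitochondrial content had a median of 0.0006 over 15 tested genes, and their summed TPM ranged from 3379 to 3637 in anti-PD-L1 libraries and from 3431 to 3577 in IgG libraries. Sdha, a subunit of complex II, had 108 ± 13.1 TPM in anti-PD-L1 libraries and 89.2 ± 1.40 TPM in IgG libraries (SD, n = 4 each), a difference of 0.27 (SE 0.08). Tfam, which packages mitochondrial DNA and starts its transcription, had 321 ± 26.8 TPM in anti-PD-L1 libraries and 366 ± 16.2 TPM in IgG libraries, a difference of -0.19 (SE 0.06). The groups of neither gene overlapped, and neither passed, with adjusted p of 0.701 for Sdha and 0.81 for Tfam in limma. Regulators of mitochondrial genes, among them Gabpb1 at 0.11 (SE 0.10), had a median of 0.03 over 8 tested genes. Their summed TPM, of which Tfam is the greater part, ranged from 390 to 445 in anti-PD-L1 libraries and from 446 to 469 in IgG libraries.

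**Figure D4:**
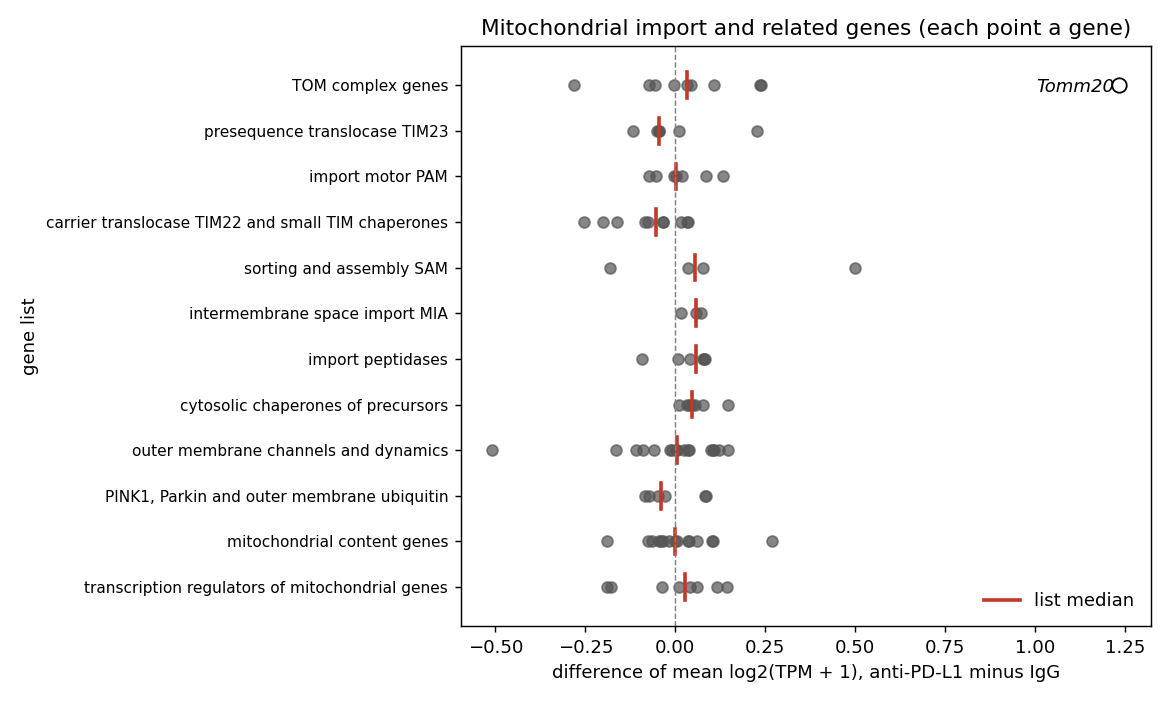
Difference of mean log2(TPM + 1), anti-PD-L1 minus IgG, for each tested gene of the TOM complex (top) and of 11 lists of import and mitochondrial genes, with the list median as a red bar. The median of the TOM genes leaves out Tomm20, the open circle at 1.23, which was chosen for its difference. All other points lie between -0.51 and 0.50.

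Cell type markers were summed in each library to set the cell makeup beside these values. All 8 markers of elongating spermatids were measured, with summed levels from 56650 to 64540 TPM in anti-PD-L1 libraries and from 59410 to 74750 TPM in IgG libraries, so the tissue carried its defining germ cell transcripts. All 8 had differences below 0, with a median of -0.15, beside 0.03 over all genes. That median was -0.05 after quantile normalization. Of the 8, 2 had an unadjusted p under 0.05 and 0 passed an adjusted p of 0.05 in limma. Markers of 1 cell type can move together, so the 8 are not separate observations. Their part in the results was not tested. Summed markers of round spermatids, spermatocytes, spermatogonia and Sertoli cells overlapped between the groups. The 8 Leydig markers did not overlap, at 2185 to 3455 TPM in anti-PD-L1 libraries and 1224 to 1592 TPM in IgG libraries. Without Insl3, the other 7 ranged from 426 to 664 TPM in anti-PD-L1 libraries and from 473 to 594 TPM in IgG libraries and overlapped. Insl3, the gene of a Leydig cell hormone, ranged from 1610 to 3028 TPM in anti-PD-L1 libraries and from 752 to 998 TPM in IgG libraries, and its part in the Tomm20 difference was not tested. Adipocyte markers summed to 9.81 to 14.4 TPM (median 11.9) in anti-PD-L1 libraries and 13.3 to 86.9 TPM (median 24.35) in IgG libraries. None of the 8 was at 0 in all libraries. The median difference of those tested was -0.62, or -0.33 without IgG replicate 1. Macrophage markers overlapped, at 57.93 to 72.17 TPM in anti-PD-L1 libraries and 51.03 to 61.79 TPM in IgG libraries. The 8 T and NK cell markers, none of which passed the filter, summed to 2.09 to 4.24 TPM in anti-PD-L1 libraries and 2.96 to 3.44 TPM in IgG libraries. Erythrocyte markers overlapped, at 50.5 to 159 TPM in anti-PD-L1 libraries and 34.0 to 209 TPM in IgG libraries. All 5 had differences above 0, with a median of 0.74. All 5 peritubular myoid markers had differences below 0, with a median of -0.08. Summed markers of myoid cells, endothelium, B cells and epididymal epithelium overlapped between the groups.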

How the data were processed

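Bulk RNA of testis was sequenced in 8 libraries, 4 per group, and the sample titles gave group and replicate. TRIzol extraction, DNase I digestion and TruSeq library preparation are named per the labels' protocols. The authors deposited gene-level TPM. Build mm10 and the tools RSEM, StringTie, HISAT2 and CASAVA 1.8 appear in the submitters' processing notes, without order or settings. The sums of the 8 libraries averaged 1000000 TPM after rounding. TPM hold no read depth, so depth is unknown and no counting interval is given. The deposited group means and gene length are other columns of the same table, and the means were not used as samples.

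Analysis used log2(TPM + 1). The 20343 genes averaging 1 TPM or more over the 8 libraries were fitted in limma 3.58.1 (R 4.3.3) with an intensity trend and a group term, with p-values adjusted by Benjamini-Hochberg over all genes at 0.05, and the fit was tested on simulated data. Fold changes understate the change of low genes. Positions are from GENCODE M21 (GRCm38, the assembly also called mm10), which 55450 of 55536 Ensembl rows matched, and promoter windows are from RefSeq. The TOM genes, gene lists and tests were chosen with earlier results of these data known. Besides the members, the text names the 2 genes of each pathway list with the smallest p and the 5 most like Tomm20 by each measure, and other genes are named after their values were seen. A gene that this rule names is not reported here.

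Alternatives changed the pseudocount to 0.1, raised the filter to 5 TPM or dropped it, and used quantile normalization or median-ratio rescaling. Others fitted no intensity trend, array quality weights or a replicate block. Still others left out each library in turn, or anti-PD-L1 replicate 1 and IgG replicate 4 together.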

Additional observations from a re-analysis of the deposited data

Results flagged for a closer look

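Among 20 groups of 4 libraries, a group per TOM gene and treatment, 1 held a library far from the other 3. Tomm20l stood at 104.53 TPM in IgG replicate 1, below the other IgG libraries by 0.90 of the range of the group, past the 95% critical value of Dixon's test for 4 values. Chance alone marks about 1 in 20 such groups. Without that library the difference of Tomm20l was -0.01.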

How the results depend on the processing

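The difference of Tomm20 against the mean of its relatives was 1.21 and ranged from 1.10 to 1.39 over the 17 alternatives. It was 1.10 to 1.33 with each library left out in turn, and 1.21 with the replicate number as a block. The difference of Tomm20 itself ranged from 1.11, without IgG replicate 2, to 1.43, without anti-PD-L1 replicate 1 and IgG replicate 4. IgG replicate 4 had the highest Tomm20 of the IgG libraries, at 26.7 TPM. Of the other 9 members 0 passed an adjusted p of 0.05 in limma in any of the 17 alternatives, and the count at an unadjusted p under 0.05 ran from 0 to 3. Tomm40, Tomm5 and Tomm70a stayed above 0, and Tomm40l and Tomm6 below 0, in all 17. Tomm22, Tomm20l, Tomm34 and Tomm7 changed sign in 5, 2, 1 and 1 of them, by less than the spread between libraries. Over all genes, the count past the threshold was 0 in the fit as designed and 1 with a pseudocount of 0.1. It was 5 with array quality weights, and 8 without anti-PD-L1 replicate 1 and IgG replicate 4. It ran from 0 to 15 with each library left out, with 15 once IgG replicate 4 was dropped, 3 once anti-PD-L1 replicate 4 was dropped, and 1 each for IgG replicate 2 and anti-PD-L1 replicate 1. The cause of these moves was not tested. With the replicate block it was 0. Same-numbered libraries of the groups deviated together at correlations from -0.20 to 0.10, and 2 anti-PD-L1 libraries correlated best with their own number. Whether the numbers pair the libraries cannot be settled from so few. Depth is unknown, so what it limits cannot be stated.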
